A study of Homo sapiens with 39 samples.

Results

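The genes described here are 7 members of the aryl hydrocarbon receptor pathway in HCC1428-LTED cells, a human breast cancer line kept without estrogen over the long term. They are the receptor AHR, its partner ARNT, the repressor AHRR, and the target genes CYP1A1, CYP1B1, TIPARP and NQO1. They were taken by symbol from a table of 46706 gene symbols, and all 7 were present. A mean of at least 1 TPM (a share of the library already divided by transcript length) was required for testing, which 14404 symbols and 6 of the 7 members met. AHRR, with a mean of 0.525 TPM over all libraries, did not.

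Cells of all 13 groups grew in hormone-stripped medium and were exposed for 24 hours before stranded RNA sequencing, with 3 libraries in each group and 39 in all. The untreated group received DMSO, the vehicle. The other 12 groups received 1 of 6 estrogen receptor ligands at 30 or 300 nM. Fulvestrant is the degrader in standard clinical use, and SAR439859, GDC-0810 and AZD9496 are newer degraders per the labels. In GDC-SAR the side chain of SAR439859 is placed on the scaffold of GDC-0810. In AZD-SAR it is placed on that of AZD9496. All groups come from 1 cell line, and all lack added estrogen, DMSO included.

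In its resting state AHR is held in the cytosol by a chaperone complex. When a small molecule binds, it moves to the nucleus, pairs with ARNT and binds DNA sites that share the core letters GCGTG, where it turns on genes of the CYP1 family. AHRR competes for ARNT, and TIPARP, an enzyme that attaches ADP-ribose to AHR, dampens the receptor, so both belong to its feedback. CYP1A1 and CYP1B1 oxidise polycyclic compounds and also hydroxylate estradiol, each at a different carbon. In breast cancer cells the estrogen receptor and AHR are known to influence each other's target genes.

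The core letters were looked for on both strands in RefSeq promoter windows of 300 bases (GRCh38.p14, 250 before and 50 after a transcript start). The longer form TNGCGTG, which contains the core, was searched too. Of the 7 members, 6 matched, with 9 windows in all; CYP1B1 had no entry. The stretches below show 6 of the 8 cores found, in the start regions of the receptor, its repressor and 3 targets, in lower case with the core in capitals, read on the strand where it spells GCGTG. Positions count from the transcript start.
CYP1A1, at -57 (chr15:74725571-74725595, minus strand): agggaaggagGCGTGgccacacgta
TIPARP, at -208 (chr3:156674372-156674396, minus strand): ccgcgaggggGCGTGtcctttctcg
TIPARP, at -142 (chr3:156674438-156674462, minus strand): ccctgcgcgcGCGTGcgcgttcgtt
AHRR, at -30 (chr5:321674-321698, plus strand): cgggcggctcGCGTGccggggtggg
AHR, at 38 (chr7:17298679-17298701, plus strand): tgttccgagaGCGTGccccggac
NQO1, at 2 (chr16:69726545-69726569, plus strand): tgtgggagtcGCGTGtgtagtgcac
The AHRR and NQO1 stretches carry TNGCGTG. A second AHRR window held 2 more cores, at -247 and -42, which are not printed, and the other 2 TIPARP windows held none. The ARNT window held no core. Among all 35116 windows in the table, 36.5% held the core and 5.51% held TNGCGTG, so a match is a description of letters and not a binding site.

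The members lie on 7 chromosomes in GENCODE release 29 (GRCh38). CYP1A1 is at chr15:74719542-74725610 on the minus strand, with its near paralog CYP1A2 starting 23234 bases away on the other strand. CYP1B1 is at chr2:38066973-38109902 on the minus strand and overlaps the antisense gene CYP1B1-AS1 over 36456 bases. Whether the counting used strand is not given in the sources used here, so CYP1B1 and CYP1B1-AS1 could share reads. CYP1A1 and CYP1A2 do not overlap. CYP1B1-AS1 itself had a mean of 0.0212 TPM in DMSO and 0.0377 TPM over the ligand groups.

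Sequencing depth is unknown, because each column of the table sums to 1000000 TPM. Libraries held 15818 to 26756 symbols above 0, the lowest in the third SAR439859 30 nM library, and the 3 DMSO libraries held 20708 to 22786. Median-of-ratios factors ran from 0.884 to 1.20, the highest in the first SAR439859 30 nM library. The luminal markers ESR1, GATA3, FOXA1, KRT8, KRT18 and EPCAM summed to 3946 to 4388 TPM in DMSO and 4323 to 10222 TPM with ligand. GATA3 made up the largest part (mean 3669 TPM over all libraries), so the sum does not show that the markers rose together. ESR1 had a mean of 436 TPM in DMSO and group means of 328 to 498 TPM with ligand, above DMSO only with AZD9496. Immune markers (PTPRC, CD3E, LYZ) summed to at most 2.11 TPM, endothelial markers (PECAM1, VWF) to at most 1.69 TPM and basal markers (KRT5, KRT14, TP63) to at most 3.13 TPM. Fibroblast markers summed to 7.32 to 9.39 TPM in DMSO and 9.29 to 22.5 TPM with ligand, mostly COL1A1, while DCN was at 0 in 29 libraries and COL1A2 in 25. In 2 of the 3 DMSO libraries the index sequence is also that of a treated library, and the 36 treated libraries repeat none among themselves. The labels do not say how libraries were grouped for sequencing, and the sample titles number the DMSO libraries apart from the treated ones. The part of this in the comparisons with DMSO was not tested. Any separate handling of DMSO would coincide with treatment and could not be told apart from it. In such bulk samples, fewer cells of a kind and less RNA per cell cannot be told apart either. Nothing in the labels says that the 3 libraries of a group came from separate cultures, so p-values measure the spread between these libraries.

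CYP1A1, the inducible oxidase that serves as the standard readout of AHR activity, was higher with every ligand at both doses. Over the 12 ligand groups its mean was 6.24 TPM against 0.316 TPM in DMSO, a ratio of 19.7. SAR439859 gave the highest levels and GDC-0810 and AZD9496 the lowest. Each hybrid with the SAR439859 side chain had a higher mean than its parent scaffold at both doses. That difference passed the adjusted threshold at 1 dose for each. CYP1B1, its relative, was also higher in 11 of 12 groups, but with smaller ratios and with GDC-0810 and AZD9496 at the top. NQO1 was higher in 4 of 12 groups, TIPARP was lower in 2, and AHR and ARNT passed the test in none.

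CYP1A1 was measured at 0.229, 0.423 and 0.297 TPM in the 3 DMSO libraries (mean 0.316 ± 0.0983, SD, n = 3). With SAR439859 it was 12.5, 7.47 and 6.24 TPM at 30 nM (8.72 ± 3.29) and 10.9, 10.4 and 10.7 TPM at 300 nM (10.7 ± 0.266). The 30 nM libraries were spread widely around those at 300 nM, and all were far above DMSO. Fulvestrant gave 8.85, 7.20 and 7.09 TPM at 30 nM (7.71 ± 0.987) and 9.57, 6.92 and 6.12 TPM at 300 nM (7.54 ± 1.81). AZD-SAR gave 8.59, 5.55 and 6.45 TPM at 30 nM (6.86 ± 1.56) and 8.09, 9.21 and 8.08 TPM at 300 nM (8.46 ± 0.651). Both ligands overlapped the SAR439859 libraries at 30 nM, and neither reached them at 300 nM.

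The lower part of the range was made up of the other hybrid and the 2 parent scaffolds. GDC-SAR gave CYP1A1 levels of 6.29, 4.76 and 6.71 TPM at 30 nM (5.92 ± 1.02) and 5.50, 5.45 and 6.42 TPM at 300 nM (5.79 ± 0.548). AZD9496 gave 5.02, 4.23 and 3.03 TPM at 30 nM (4.09 ± 0.999) and 3.21, 2.87 and 2.17 TPM at 300 nM (2.75 ± 0.531). GDC-0810 gave 3.66, 2.89 and 1.75 TPM at 30 nM (2.77 ± 0.964) and 4.58, 2.41 and 3.80 TPM at 300 nM (3.60 ± 1.10). The lowest ligand library still stood above the highest DMSO library, so all 36 ligand libraries (lowest 1.75, median 6.27, highest 12.5 TPM) lay above DMSO. In the order of group means, from SAR439859 at 300 nM down to AZD9496 at 300 nM, each group overlapped the next except at 1 place. There the GDC-SAR 300 nM libraries (5.45 to 6.42 TPM) cleared those of AZD9496 at 30 nM (3.03 to 5.02 TPM).

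**Figure D1:**
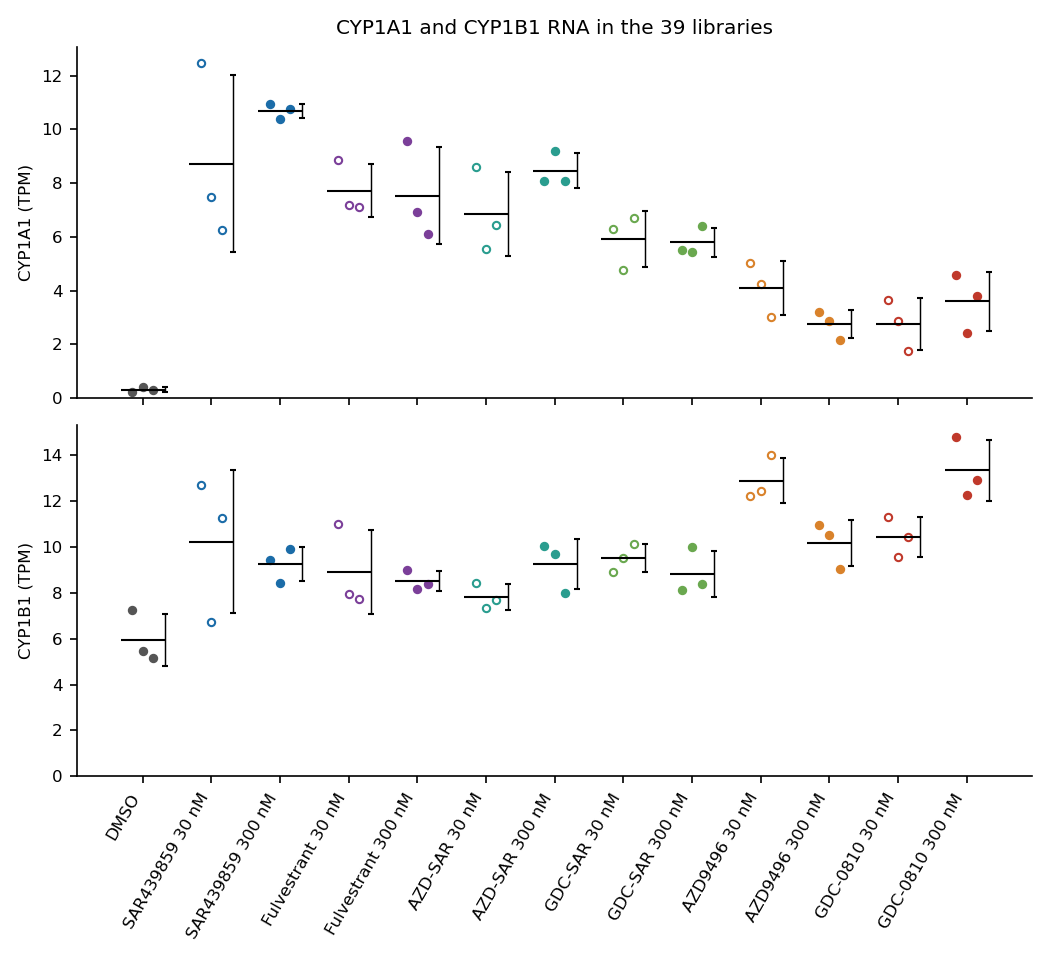
CYP1A1 and CYP1B1 RNA in TPM (vertical axes, from 0) in each of the 39 libraries, by group; points are libraries (open 30 nM, filled 300 nM), horizontal bars are group means and brackets ± SD (n = 3). CYP1A1 sits at or below 0.423 TPM in DMSO and at 1.75 to 12.5 TPM with ligand, with GDC-0810 and AZD9496 lowest; for CYP1B1 those ligands hold the highest means.

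Differences were tested on log2(TPM + 1) with limma over all 39 libraries, with p-values adjusted by the Benjamini-Hochberg method over the 14404 genes of each comparison and a call at adjusted p under 0.05. The 12 comparisons with DMSO share its 3 libraries. Where libraries are said not to overlap, this is a description, since the share of all genes without overlap was not counted. CYP1A1 was called higher in all 12, as were 1.69% of tested genes. Its log2 differences ran from 1.49 (GDC-0810, 30 nM) to 3.15 (SAR439859, 300 nM), each with a standard error of 0.218, and adjusted p-values were 4.36e-05 or smaller in limma. On the plain scale the ratios of mean TPM ran from 8.71 (AZD9496, 300 nM) to 33.8 (SAR439859, 300 nM). The average over the ligand groups was 2.35 (SE 0.160, adjusted p = 2.80e-12 by limma), where 17.5% of genes were called higher and 13.3% lower. CYP1A1 met the filter only through the ligand groups, since its DMSO mean is under 1 TPM; with no filter it was also called in all 12 comparisons. The size depends on the added 1 TPM because the DMSO level is so low: with 0.1 TPM added, the average was 3.81 and the 12 comparisons ran from 2.75 to 4.72.

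The shares of all tested genes called higher against DMSO give the scale for these counts. At 30 nM they were 11.3% for Fulvestrant, 15.3% for SAR439859 and 7.95% for GDC-0810. AZD9496 raised 9.21% of genes at that dose, GDC-SAR 11.4% and AZD-SAR 11.9%. At 300 nM the shares were 11.1% for Fulvestrant, 11.2% for SAR439859 and 6.99% for GDC-0810. For AZD9496 the share was 3.71%, for GDC-SAR 9.76% and for AZD-SAR 12.7%. Of the 6 tested members, 2 or 3 were called in each of the 12 comparisons, and CYP1A1 was among them each time.

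The ligands also differed among themselves in CYP1A1, without use of the DMSO libraries. The moderated F test among the 6 ligands in limma gave adjusted p = 3.94e-04 at 30 nM, where it called 5.11% of genes, and 1.17e-05 at 300 nM, where it called 4.91%. Of 30 pairs at matched dose, 12 were called, and all 12 set GDC-0810 or AZD9496 below one of the other 4 ligands. A further 9 pairs had an unadjusted p under 0.05 without passing the adjusted threshold. All these pair differences have a standard error of 0.218. With only the 6 libraries of each pair in the model, 1 of the 30 was called, so the pair calls rest on a spread estimated from all 39 libraries.

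At 30 nM, 5 pairs were called for CYP1A1. GDC-0810 lay below Fulvestrant by a log2 difference of -1.24 (limma adjusted p = 7.15e-04, with 1.21% of genes called lower) and below SAR439859 by -1.35 (adjusted p = 1.37e-04, 3.76% lower). AZD9496 lay below SAR439859 by -0.90 (adjusted p = 0.0112, 1.1% lower). GDC-SAR exceeded GDC-0810 by 0.90 (95% interval 0.46 to 1.35, adjusted p = 0.0297, 0.583% of genes higher), a pair that differs by the side chain. AZD-SAR exceeded GDC-0810 by 1.08 (adjusted p = 0.00439, 0.896% higher). The side-chain pair AZD-SAR against AZD9496 gave 0.63 (0.18 to 1.07, adjusted p = 0.180) and was not called at this dose, though its libraries did not overlap. AZD9496 against Fulvestrant gave -0.79 (adjusted p = 0.0542).

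Leaving out 1 library ended some of these calls. GDC-SAR against GDC-0810 was lost without the second or the third GDC-0810 library and without the first or the third GDC-SAR library (0.69 to 1.07, the smallest without the third GDC-0810 library, adjusted p = 0.242). AZD9496 against SAR439859 became -0.64 (adjusted p = 0.0535) without the first SAR439859 library, the one at 12.5 TPM of CYP1A1, and -0.74 (adjusted p = 0.0947) without the third AZD9496 library. AZD-SAR against GDC-0810 became 0.87 (adjusted p = 0.0597) without the third GDC-0810 library and 0.92 (adjusted p = 0.0506) without the first AZD-SAR library.

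At 300 nM, 7 pairs were called for CYP1A1. GDC-0810 and AZD9496 lay below Fulvestrant by log2 differences of -0.90 (limma adjusted p = 0.0190) and -1.18 (adjusted p = 0.00130), where 1.55% and 0.722% of genes were called lower. They lay below SAR439859 by -1.38 (adjusted p = 1.58e-04) and -1.65 (adjusted p = 6.57e-06), where 1.06% and 1.53% were called lower. AZD-SAR exceeded its parent scaffold AZD9496 by 1.34 (95% interval 0.90 to 1.79, adjusted p = 2.01e-04), with 2.17% of genes called higher. It exceeded GDC-0810 by 1.07 (adjusted p = 0.00541, 0.771% higher). GDC-SAR exceeded AZD9496 by 0.86 (adjusted p = 0.0241, 0.597% higher). GDC-SAR against its own parent GDC-0810 gave 0.59 (0.14 to 1.03, adjusted p = 0.288) and was not called, although all 3 of its libraries lay above all 3 of GDC-0810.

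Single libraries mattered here too. GDC-0810 against Fulvestrant became -0.74 (adjusted p = 0.141) without the first Fulvestrant library and -0.70 (adjusted p = 0.138) without the second GDC-0810 library. AZD-SAR against GDC-0810 became 0.87 (adjusted p = 0.0623) without that same GDC-0810 library. GDC-SAR against AZD9496 was lost on leaving out the second or the third AZD9496 library or any 1 GDC-SAR library (0.75 to 0.90 for CYP1A1). The calls for AZD9496 against Fulvestrant, both parents against SAR439859, and AZD-SAR against AZD9496 at 300 nM held without each library of the pair in turn.

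No pair among the 3 ligands with the SAR439859 side chain was called for CYP1A1. AZD-SAR minus GDC-SAR was 0.18 at 30 nM (95% interval -0.27 to 0.62) and 0.48 at 300 nM (0.03 to 0.92), both with limma adjusted p = 1. AZD-SAR minus SAR439859 was -0.27 and -0.31, and GDC-SAR minus SAR439859 was -0.45 at 30 nM (-0.89 to -0.00, adjusted p = 0.303) and -0.79 at 300 nM (-1.23 to -0.34, adjusted p = 0.599). Of these 6 intervals 3 exclude 0, those of GDC-SAR against SAR439859 at both doses and of AZD-SAR against GDC-SAR at 300 nM, so the values do not show that the 3 ligands act alike. Whether the side chain added more CYP1A1 on the AZD9496 scaffold than on the GDC-0810 scaffold was tested as a difference of differences. It was -0.27 at 30 nM (adjusted p = 0.911) and 0.75 at 300 nM (0.12 to 1.38, adjusted p = 0.260). In these tests 0% of genes were called at 30 nM and 0.00694% at 300 nM, and no member was.

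**Figure D2:**
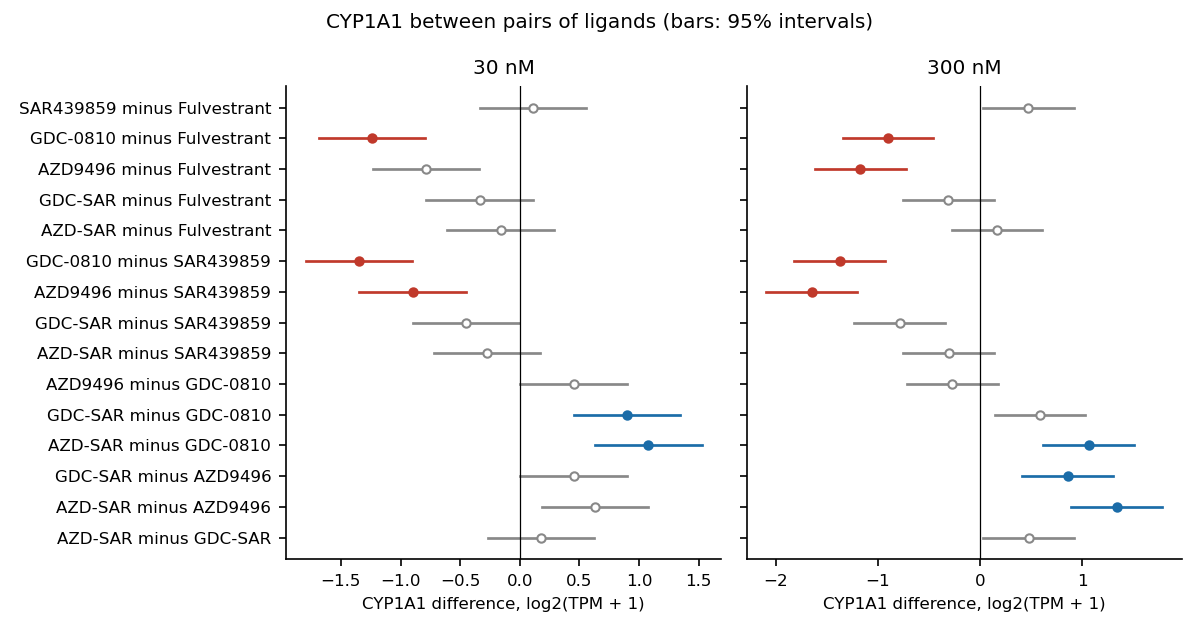
CYP1A1 differences between pairs of ligands at 30 nM (left) and 300 nM (right), on log2(TPM + 1); points are differences, bars 95% intervals, and filled coloured points are calls at adjusted p under 0.05 (red lower, blue higher). The 12 calls all set GDC-0810 or AZD9496 below another ligand.

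The same pattern stood beside that of PGR, the progesterone receptor gene and a classic estrogen receptor target. PGR was measured at 29.2, 31.3 and 47.0 TPM in DMSO and between 1.49 and 9.9999 TPM (median 3.49) in the 36 ligand libraries, all below DMSO. Over the 13 groups the means of log2(TPM + 1) for CYP1A1 and PGR had r = -0.985, and over the 12 ligand groups r = -0.963. The groups low in CYP1A1, GDC-0810 and AZD9496, were those in which PGR stayed highest among the ligands. These correlations are descriptions over group means from shared libraries. By the same measure the 5 genes most like CYP1A1, among 10968 with at least 5 TPM in some group, were ACSS3 (r = 0.987), PRKAB2 (0.983), ITPR1 (0.982), STS (0.975) and BLNK (0.974). PRKAB2, a subunit of the AMP-activated kinase, had a mean of 7.52 TPM in DMSO and 35.2 TPM in its highest group, and ITPR1, a calcium release channel, went from 6.65 to 27.5 TPM.

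CYP1B1, which hydroxylates estradiol to a catechol that is easily oxidised further, had a higher starting level. It was 7.24, 5.47 and 5.14 TPM in DMSO (5.95 ± 1.13, n = 3). GDC-0810 gave 11.3, 9.57 and 10.4 TPM at 30 nM (10.4 ± 0.872) and 14.8, 12.3 and 12.9 TPM at 300 nM (13.3 ± 1.32). AZD9496 gave 12.2, 12.4 and 14.0 TPM at 30 nM (12.9 ± 0.984) and 10.98, 10.5 and 9.04 TPM at 300 nM (10.2 ± 1.01). These ligands held the 3 highest group means, where they had held the lowest for CYP1A1. SAR439859 gave 12.7, 6.75 and 11.3 TPM at 30 nM (10.2 ± 3.11) and 9.44, 8.45 and 9.91 TPM at 300 nM (9.27 ± 0.743). Its second library at 30 nM was the only ligand library that did not exceed the highest DMSO library.

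Fulvestrant gave CYP1B1 levels of 11.03, 7.94 and 7.75 TPM at 30 nM (8.91 ± 1.84) and 8.99, 8.17 and 8.38 TPM at 300 nM (8.51 ± 0.430). GDC-SAR gave 8.92, 9.54 and 10.1 TPM at 30 nM (9.53 ± 0.609) and 8.13, 9.996 and 8.38 TPM at 300 nM (8.83 ± 1.01). AZD-SAR gave 8.45, 7.34 and 7.69 TPM at 30 nM (7.83 ± 0.567) and 10.03, 9.72 and 8.003 TPM at 300 nM (9.25 ± 1.09). All of these lay above DMSO, and they overlapped each other widely. Across the 36 ligand libraries the lowest, median and highest values were 6.75, 9.64 and 14.8 TPM. In the order of group means, each ligand group overlapped the next except that AZD9496 at 30 nM (12.2 to 14.0 TPM) cleared GDC-0810 at 30 nM (9.57 to 11.3 TPM).

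CYP1B1 was called higher than DMSO in 11 of 12 comparisons, with log2 differences from 0.46 to 1.05 (standard error 0.158 each) and limma adjusted p-values from 3.77e-05 to 0.0376. At least 6 calls of 12 were reached by 9.59% of genes upward and 8.59% downward. The exception was AZD-SAR at 30 nM, at 0.36 (adjusted p = 0.113), with libraries that did not overlap DMSO. The average over the ligand groups was 0.64 (SE 0.116, limma adjusted p = 8.48e-05), a ratio of means of 1.67. The number of calls depended on the DMSO libraries. It was 6 without the third of them and 8 without the second, and 5 with only the 6 libraries of each comparison in the model.

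Between ligands CYP1B1 differed in 2 of 30 pairs. AZD-SAR lay below its parent AZD9496 at 30 nM by -0.65 (limma adjusted p = 0.0229, with 1.51% of genes called lower), and GDC-0810 lay above Fulvestrant at 300 nM by 0.59 (adjusted p = 0.0377, with 1.06% called higher). Each was lost on leaving out single libraries: AZD-SAR against AZD9496 without any of its libraries but the first of AZD-SAR, and GDC-0810 against Fulvestrant without any 1 of the 6. The F test among ligands missed the threshold at both doses (adjusted p = 0.0946 and 0.102 in limma), and passed at 30 nM without the first (0.0416) or second (0.00926) SAR439859 library and at 300 nM with median-of-ratios scaling (0.0352). On the AZD9496 scaffold at 30 nM the hybrid thus had the lower CYP1B1, while its CYP1A1 difference was 0.63 without a call. The difference of the side-chain effects between scaffolds was -0.54 at 30 nM (adjusted p = 0.891) and 0.42 at 300 nM (adjusted p = 0.373) for CYP1B1.

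TPM is scaled by length, so the CYP1B1 and CYP1A1 levels can be set against each other within a library. In DMSO, CYP1B1 stood at 12.9 to 31.6 times CYP1A1 (mean 20.6, SD 9.77). This ratio is unsteady, because CYP1A1 was only 0.229 to 0.423 TPM there. With SAR439859 at 300 nM the mean ratio was 0.866 (0.813 to 0.922), so that CYP1A1 had become the more abundant of the pair in all 3 libraries. In every other ligand group CYP1B1 was in excess on average. Fulvestrant had ratios of 1.15 and 1.16 at the lower and higher dose, GDC-SAR 1.64 and 1.54, and AZD-SAR 1.17 and 1.10. SAR439859 at 30 nM had a mean of 1.24, with libraries from 0.904 to 1.81. The excess was largest with GDC-0810 and AZD9496, with mean ratios of 4.12 and 3.91 for the former and 3.33 and 3.75 for the latter. The correlation of CYP1A1 with CYP1B1 was 0.24 over the 13 group means and -0.60 over the 12 ligand groups, a description in which all groups share the scale of the table. The genes with means most like those of CYP1B1 were C14ORF132 (r = 0.881) and S100A8 (0.871), a calcium-binding protein of inflammation, followed by TANC2 (0.863), SRGAP1 (0.855) and PP14571 (0.834).

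**Figure D3:**
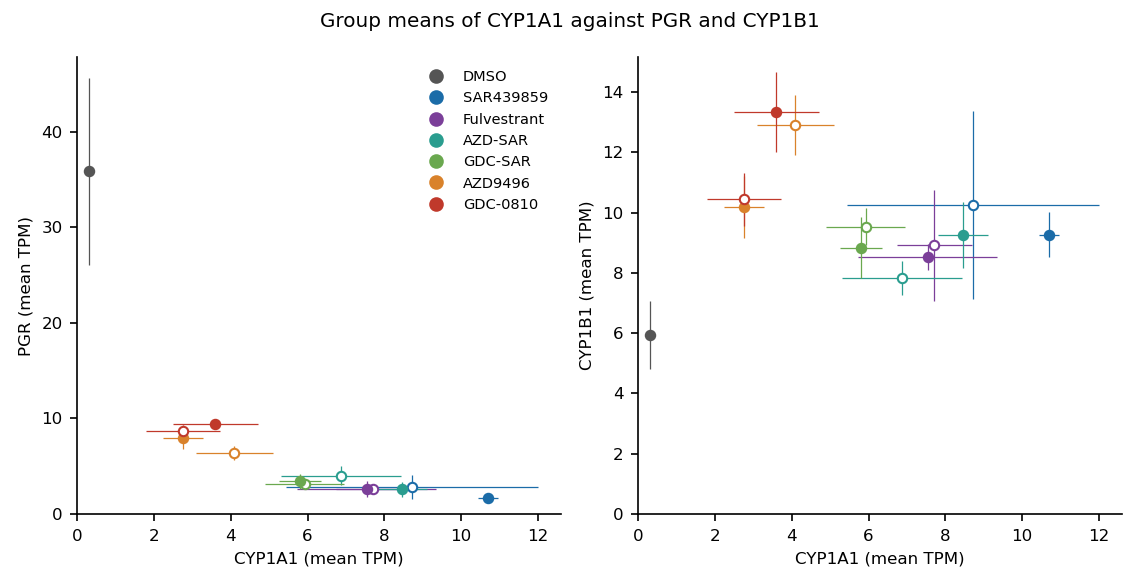
Group means of CYP1A1 (horizontal axes, TPM) against PGR (left) and CYP1B1 (right, TPM), with bars of ± SD (n = 3), open points at 30 nM and filled at 300 nM. PGR is lowest where CYP1A1 is highest, at 10.7 TPM with SAR439859 at 300 nM, while CYP1B1 is highest, at 13.3 TPM, with GDC-0810 at 300 nM, where CYP1A1 is 3.60 TPM.

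NQO1, a quinone reductase that responds to AHR and also to the oxidative stress factor NRF2, was the most abundant member. It was 260, 251 and 254 TPM in DMSO (255 ± 4.63, n = 3). AZD-SAR gave 351, 334 and 318 TPM at 30 nM (334 ± 16.7) and 276, 310 and 322 TPM at 300 nM (303 ± 23.8). GDC-SAR gave 318, 332 and 321 TPM at 30 nM (324 ± 7.19) and 328, 335 and 312 TPM at 300 nM (325 ± 11.8). All 12 of these hybrid libraries stood above DMSO. Fulvestrant gave 319, 287 and 314 TPM at 30 nM (307 ± 17.6) and 341, 304 and 297 TPM at 300 nM (314 ± 23.7). SAR439859 gave 329, 301 and 263 TPM at 30 nM (297 ± 33.2) and 307, 292 and 307 TPM at 300 nM (302 ± 8.65). These too lay above DMSO in each library.

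The 2 parent scaffolds did not follow. GDC-0810 gave NQO1 levels of 223, 251 and 280 TPM at 30 nM (251 ± 28.2) and 256, 242 and 243 TPM at 300 nM (247 ± 7.77). AZD9496 gave 303, 253 and 293 TPM at 30 nM (283 ± 26.3) and 283, 228 and 209 TPM at 300 nM (240 ± 38.5). Both overlapped DMSO at both doses. In the order of the 13 group means, each group overlapped the next.

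NQO1 was called higher in 4 of 12 comparisons with DMSO: AZD-SAR at 30 nM (log2 difference 0.39, limma adjusted p = 0.00643), GDC-SAR at 300 nM (0.35, 0.0142), GDC-SAR at 30 nM (0.34, 0.0148) and Fulvestrant at 300 nM (0.30, 0.0371), with a standard error of 0.102. SAR439859 gave 0.22 and 0.25 at the lower and higher dose, and AZD-SAR at 300 nM gave 0.25, none of them called. GDC-0810 gave -0.03 and -0.05, and AZD9496 gave 0.15 and -0.10. The average over ligands was 0.19 (SE 0.0748, adjusted p = 0.0479 in limma), a call lost without any 1 of the DMSO libraries (adjusted p from 0.104 to 0.172) and with median-of-ratios scaling (0.13, adjusted p = 0.118). Without the second DMSO library 1 of the 4 single calls was left.

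Differences in NQO1 between ligands did not use DMSO. The F test gave adjusted p = 0.0713 at 30 nM (0.0374 without the first SAR439859 library) and 0.00959 at 300 nM in limma. Of 30 pairs, 6 were called, and each set GDC-0810 or AZD9496 below another ligand, as for CYP1A1. At 30 nM AZD-SAR exceeded GDC-0810 by 0.42 (adjusted p = 0.0248). At 300 nM AZD9496 lay below Fulvestrant by -0.40 (adjusted p = 0.0260) and below SAR439859 by -0.34 (adjusted p = 0.0351). GDC-SAR exceeded GDC-0810, its parent, by 0.40 (adjusted p = 0.0471, with 0.562% of genes called higher) and AZD9496 by 0.45 (adjusted p = 0.0105). AZD-SAR exceeded AZD9496, its parent, by 0.35 (adjusted p = 0.0320), with 1 AZD9496 library of 283 TPM overlapping the AZD-SAR range of 276 to 322 TPM. With no filter on low genes 3 of the 6 pairs were called, and with only the 6 libraries of a pair in the model 0 were, while 13 of 30 had an unadjusted p under 0.05 in limma. Each of the 6 calls was lost on leaving out any of several single libraries; the 4 that involve AZD9496 were lost without its second or the third library (limma adjusted p from 0.0848 to 0.193), and GDC-SAR against GDC-0810 was lost without any 1 of its 6. NQO1 means correlated with CYP1A1 means at r = 0.71 over 13 groups and 0.78 over 12, as a description. The genes most like NQO1 in their group means were EFR3A (r = 0.933), CD302 (0.932), UBXN7 (0.927), SLC35A1 (0.915) and WWP1 (0.910).

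TIPARP, the feedback enzyme and in many cells a rapid AHR target, was called in 2 comparisons only, both of them lower. It was 13.1, 9.38 and 8.996 TPM in DMSO (10.5 ± 2.25, n = 3), with 1 library standing above the others. The 36 ligand libraries ran from 6.42 to 10.9 TPM (median 8.78); none exceeded the highest DMSO library and 20 lay below the lowest. SAR439859 at 300 nM, with 7.53, 8.69 and 7.40 TPM, was called lower (log2 difference -0.36, limma adjusted p = 0.0379), as was GDC-0810 at 300 nM, with 7.68, 7.22 and 8.64 TPM (-0.36, adjusted p = 0.0484). In those comparisons 12.8% and 9.04% of genes were called lower. The largest difference, AZD9496 at 300 nM with 9.29, 6.42 and 7.23 TPM, was -0.41 (adjusted p = 0.0526), and the standard error was 0.126 throughout. The average over ligands was -0.24 (SE 0.0931, adjusted p = 0.0539 in limma).

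The TIPARP calls turned on the DMSO libraries. Without the first, at 13.1 TPM, the average was -0.08 (adjusted p = 0.620) and 0 comparisons were called, where the full set of libraries gave 2 calls and 7 unadjusted p-values under 0.05 in limma. Without the second 1 was called, and leaving out either of 2 libraries of the SAR439859 or the GDC-0810 group ended that group's call as well. Without the third, the average was -0.33 (adjusted p = 0.0352) and 4 were called. With median-of-ratios scaling the average also passed (-0.29, adjusted p = 0.0191), with 4 calls. No pair of ligands was called for TIPARP, and the F test gave adjusted p = 0.675 at 30 nM and 0.938 at 300 nM. The genes most like TIPARP in their group means were MTF2 (r = 0.862), PPTC7 (0.838), GNB4 (0.836), KPNA1 (0.831) and PPID (0.823).

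AHR, the receptor, was expressed at a low level in every group. It was 2.57, 3.23 and 2.79 TPM in DMSO (2.87 ± 0.335, n = 3), and 1.93 to 3.92 TPM (median 3.05) in the 36 ligand libraries. Of these, 12 lay above and 12 below the DMSO range. Group means ran from 2.48 TPM (Fulvestrant, 300 nM) to 3.42 TPM (GDC-0810, 300 nM), and each group overlapped the next. No comparison with DMSO was called, with log2 differences from -0.16 to 0.19 and an average of 0.01 (95% interval -0.25 to 0.27, limma adjusted p = 0.969). None of its 30 pairs of ligands was called, and none had an unadjusted p under 0.05 in limma.

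ARNT, the obligate partner, was more abundant. It was 27.7, 28.6 and 28.7 TPM in DMSO (28.3 ± 0.583, n = 3). The ligand libraries ran from 20.2 to 48.5 TPM (median 33.7), with 28 above DMSO, 3 below and the rest within it. SAR439859 at 30 nM alone spanned that whole range, with 48.5, 33.5 and 20.2 TPM. Its library at 48.5 TPM had the largest median-of-ratios factor of the series (1.20). The library at 20.2 TPM had the fewest symbols above 0 (15818). Whether this bears on the spread was not tested. AZD9496 at 30 nM, with 37.4, 37.5 and 42.5 TPM, had the highest mean (39.1 ± 2.91), a log2 difference of 0.45 (limma adjusted p = 0.152). AZD-SAR at 30 nM, with 37.2, 41.9 and 35.5 TPM, gave 0.42 (adjusted p = 0.149), and both comparisons passed the threshold when only their own 6 libraries entered the model (adjusted p = 0.0328 for AZD9496 and 0.0211 for AZD-SAR). The average was 0.23 (SE 0.148, adjusted p = 0.254 in limma), and no comparison was called. SAR439859 at 30 nM reached 0.49 (adjusted p = 0.0492) without the third library, the one at 20.2 TPM.

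AHRR, the repressor and usually a sensitive AHR target, stayed below 1.2 TPM in all libraries. It was 0.865, 0.292 and 0.367 TPM in DMSO and 0.137 to 1.12 TPM (median 0.477) with ligand, and 31 of the 36 ligand libraries lay within the DMSO range. Exact two-sided permutation tests of the 12 groups against DMSO gave p from 0.5 to 1, where 3 against 3 libraries cannot go below 0.1. Fitted without a filter among 39392 genes, its average difference was 0.03 (limma adjusted p = 0.916). No direction can be read for it.

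**Figure D4:**
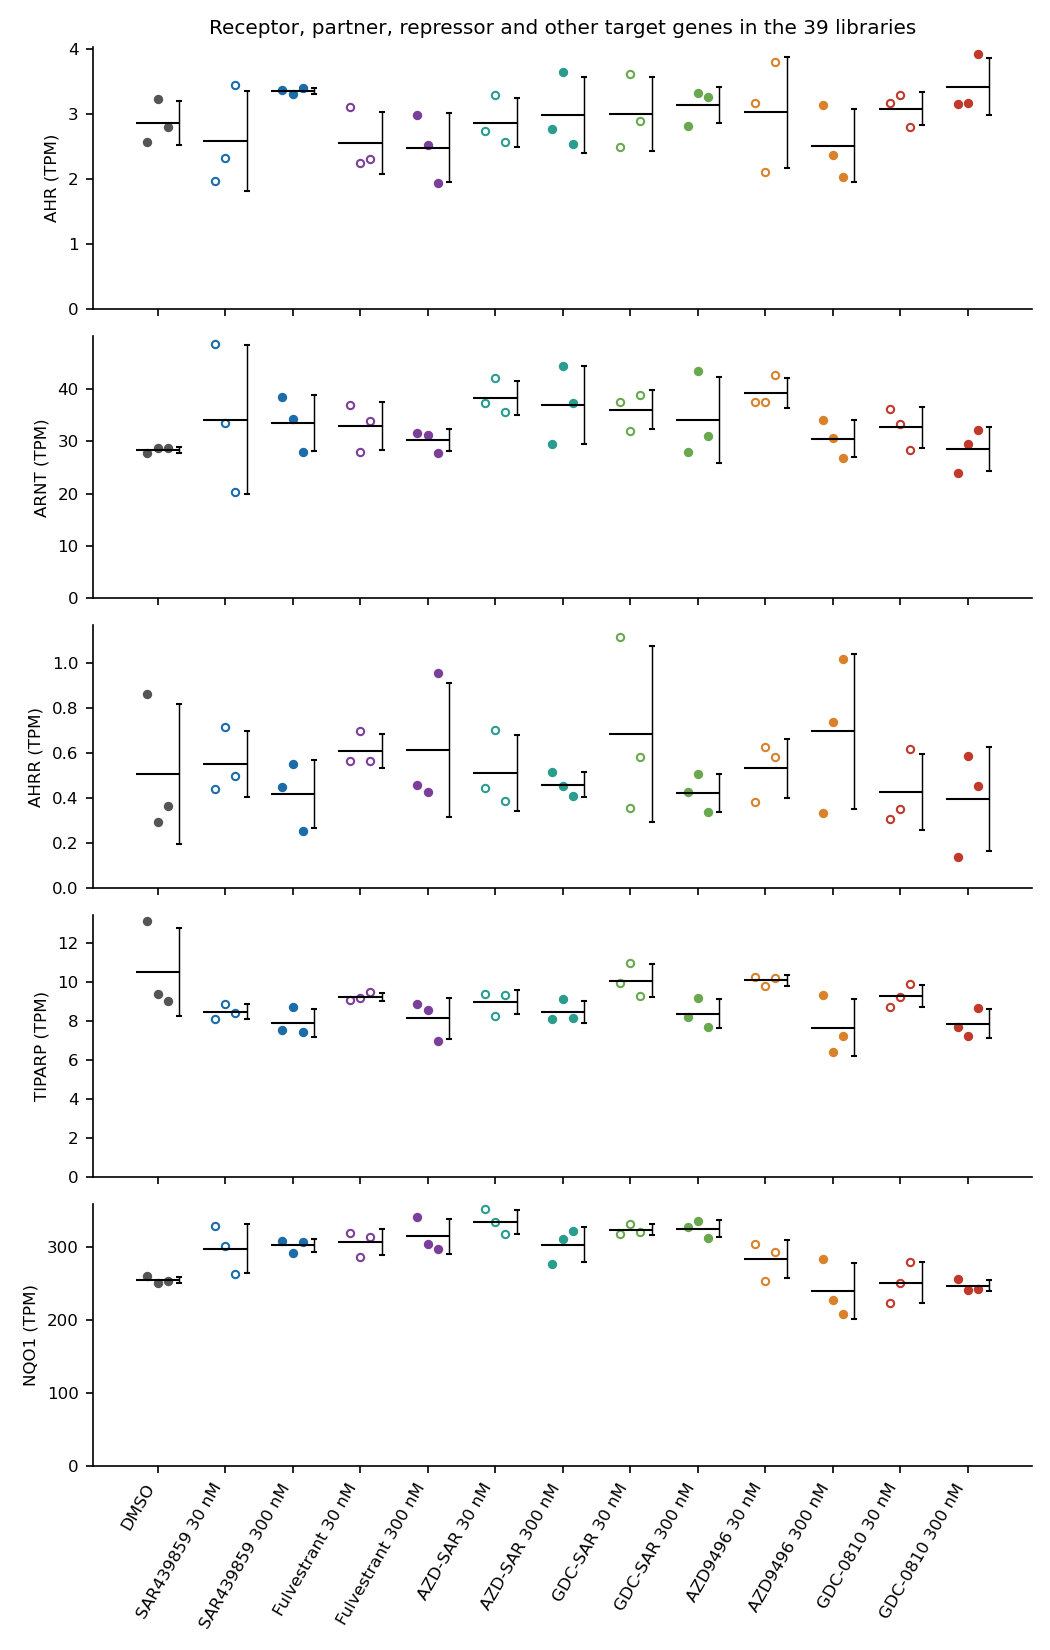
AHR, ARNT, AHRR, TIPARP and NQO1 in TPM (vertical axes, from 0) in each of the 39 libraries, by group; points are libraries (open 30 nM, filled 300 nM), horizontal bars are means and brackets ± SD (n = 3). AHR and AHRR have ligand libraries on both sides of the DMSO range, 1 DMSO library of TIPARP stands at 13.1 TPM, and NQO1 is near its DMSO mean of 255 TPM with GDC-0810.

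The 2 doses were compared within each ligand. None of 36 tests of 300 against 30 nM (6 members, 6 ligands) was called by limma, and 3 had an unadjusted p under 0.05: CYP1B1 with GDC-0810 (log2 difference 0.33), TIPARP with AZD9496 (-0.37) and NQO1 with AZD9496 (-0.25). The share of all genes called was 0% for each of the 6 ligands, so the lack of calls does not show that the doses act alike. For CYP1A1 the dose differences ran from -0.43 (AZD9496) to 0.32 (SAR439859), each interval including 0. The CYP1B1 means went from 10.4 to 13.3 TPM with GDC-0810 and from 12.9 to 10.2 TPM with AZD9496. Neither difference was called, so no dose response is read from them. Libraries of the 2 doses did not overlap in either case. The same held for TIPARP with Fulvestrant, GDC-0810, AZD9496 and GDC-SAR, and for ARNT with AZD9496.

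The cytosolic complex that holds AHR, and the proteins that work with it in the nucleus, formed a list of 19 genes, all tested. Against DMSO on average 9 were called higher and 4 lower, where 17.5% of all tested genes were higher and 13.3% lower, with a median log2 difference of 0.24 against 0.08 for all genes. The 4 that fell were 3 chaperone genes and the kinase gene SRC (-0.70, limma adjusted p = 0.0234, named after its value was seen). HSP90AA1, the stress-inducible HSP90 chaperone, was 705, 1121 and 1175 TPM in DMSO and 154 to 854 TPM (median 309) with ligand, a log2 difference of -1.56 (SE 0.339, limma adjusted p = 7.57e-04, lower in 10 of 12 comparisons). Its exceptions were both AZD9496 groups, with means of 691 and 677 TPM. PTGES3, the cochaperone p23, was 204, 220 and 260 TPM in DMSO and 66.6 to 141 TPM with ligand (-1.24, SE 0.127, adjusted p = 9.56e-09, lower in 12). HSP90AB1 was 213 to 293 TPM in DMSO and 139 to 204 TPM with ligand (-0.54, SE 0.0883, adjusted p = 2.12e-05, lower in 11). HSP90AA1, HSP90AB1 and PTGES3 have near-identical pseudogene copies that could take part of their reads.

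Among the nuclear partners NCOA3, a coactivator shared by AHR and the estrogen receptor, was 14.0 to 15.4 TPM in DMSO and 22.0 to 33.6 TPM with ligand (log2 difference 0.79, SE 0.0749, limma adjusted p = 2.13e-09, higher in 12 of 12 comparisons). EP300, a histone acetyltransferase, was 21.8 to 23.4 TPM in DMSO and 28.4 to 43.5 TPM with ligand (0.58, adjusted p = 2.45e-06, higher in 12). CUL4B, the scaffold of a ubiquitin ligase that AHR can join, went from 20.3 to 23.9 TPM to 24.9 to 48.5 TPM (0.63, adjusted p = 1.67e-05, higher in 10). ARNT2, a relative of ARNT, was low, at 0.440 to 0.746 TPM in DMSO and 0.617 to 3.56 TPM with ligand (0.71, adjusted p = 0.00317, higher in 8). Like CYP1A1, it met the filter only through the ligand groups. Without the second DMSO library the list's counts were 6 higher and 3 lower.

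Other AHR target genes were mostly below the filter: of 15 listed, 3 passed it. SLC7A5, a transporter of large neutral amino acids, was 84.5, 91.0 and 96.8 TPM in DMSO and fell in 9 of 12 comparisons (average log2 difference -1.15, SE 0.103, limma adjusted p = 7.49e-10). Its group means were 23.4 to 30.3 TPM with Fulvestrant, SAR439859 and both hybrids. With GDC-0810 they were 81.0 TPM at 30 nM and 69.0 TPM at 300 nM (-0.40, adjusted p = 0.0490), and with AZD9496 93.5 and 91.6 TPM, neither called. POLK gave -0.17 and NFE2L2, the gene of NRF2, 0.45 (adjusted p = 0.0531); neither was called. CYP1A2 was below the filter, at 0.0893, 0.128 and 0.171 TPM in DMSO and 0 to 1.12 TPM (median 0.351) with ligand, where 29 of 36 libraries lay above DMSO and 3 were at 0. CYP2S1, a further P450 chosen for mention after its values were seen, was also below the filter and was 1.97, 2.69 and 2.77 TPM in DMSO and 0.196 to 1.17 TPM with ligand, below DMSO in all 36. Neither was tested.

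NRF2 drives a battery of protective genes to which NQO1 also belongs. Of 18 listed genes 16 were tested; on average 1 was called higher and 5 lower (17.5% and 13.3% of all genes), with a median of -0.11 against 0.08 for all genes. OSGIN1, a growth inhibitor induced by oxidative stress, was 14.7 to 17.4 TPM in DMSO and 3.80 to 13.2 TPM with ligand (log2 difference -1.11, limma adjusted p = 2.97e-08, lower in 11 comparisons). PGD, of the pentose phosphate pathway, was 162 to 178 TPM in DMSO and 67.5 to 171 TPM with ligand (-0.71, adjusted p = 3.95e-05, lower in 10). SRXN1, which repairs peroxiredoxins, gave -0.65 (adjusted p = 0.00168, lower in 9). FTL, a ferritin subunit named to complete the count, gave -0.32 (adjusted p = 0.0227). TALDO1, transaldolase of the pentose phosphate pathway, was higher (0.57, adjusted p = 0.00193, in 8). GCLC, GCLM, HMOX1 and TXNRD1 gave 0.42, -0.24, 0.07 and 0.11 and were not called.

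Enzymes of tryptophan breakdown, which makes kynurenine and other natural AHR ligands, numbered 12 on the list, with 10 in the table and 6 tested. On average 2 were called higher and 1 lower, beside 17.5% and 13.3% of all genes, and the median was 0.28 against 0.08 for all genes. KYNU, kynureninase, was 5.22, 5.91 and 6.36 TPM in DMSO and 6.55 to 20.6 TPM (median 15.2) with ligand, above DMSO in all 36 libraries (log2 difference 1.10, SE 0.129, limma adjusted p = 1.24e-07, higher in 10). The exceptions were GDC-0810 at 30 nM (0.47, adjusted p = 0.0634) and AZD9496 at 300 nM (0.42, adjusted p = 0.171). KMO, kynurenine monooxygenase, was 0.474, 0.584 and 0.680 TPM in DMSO and 0.746 to 11.5 TPM (median 2.17) with ligand, again above DMSO in all 36 (1.07, SE 0.237, adjusted p = 9.29e-04, higher in 8). The highest KMO value came from SAR439859 at 30 nM, whose libraries gave 2.02, 3.39 and 11.5 TPM. KMO met the filter of 1 TPM only through the ligand groups, so its place among the tested genes depends on those levels. Its 4 groups without a call were those of GDC-0810 and AZD9496. AFMID, which forms kynurenine from its formyl precursor, gave -0.41 (adjusted p = 0.0424), and without any 1 DMSO library the list had 0 genes called lower.

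The P450 electron donors and the enzymes of estrogen metabolism were 16 genes, 10 of them tested, and on average 3 were called higher and 3 lower, beside 17.5% and 13.3% of all genes, with a median of 0.23 against 0.08 for all genes. STS, which frees estrogens from their sulfates, was 59.5 to 64.8 TPM in DMSO and 66.1 to 128 TPM with ligand (log2 difference 0.63, limma adjusted p = 3.21e-06, higher in 11 comparisons). SULT1A1, which adds sulfate, gave 0.61 (adjusted p = 1.24e-04, higher in 11). The electron donors were lower: CYB5R3 at -0.51 (adjusted p = 0.00521), CYB5A at -0.49 (adjusted p = 0.00165) and POR, the reductase that feeds microsomal P450 enzymes, at -0.45 (adjusted p = 0.0171). POR was called in 5 comparisons, and its average call was lost without any 1 DMSO library (adjusted p from 0.0555 to 0.101). The lists were drawn up with earlier results of these data known, so their counts are descriptions.

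**Figure D5:**
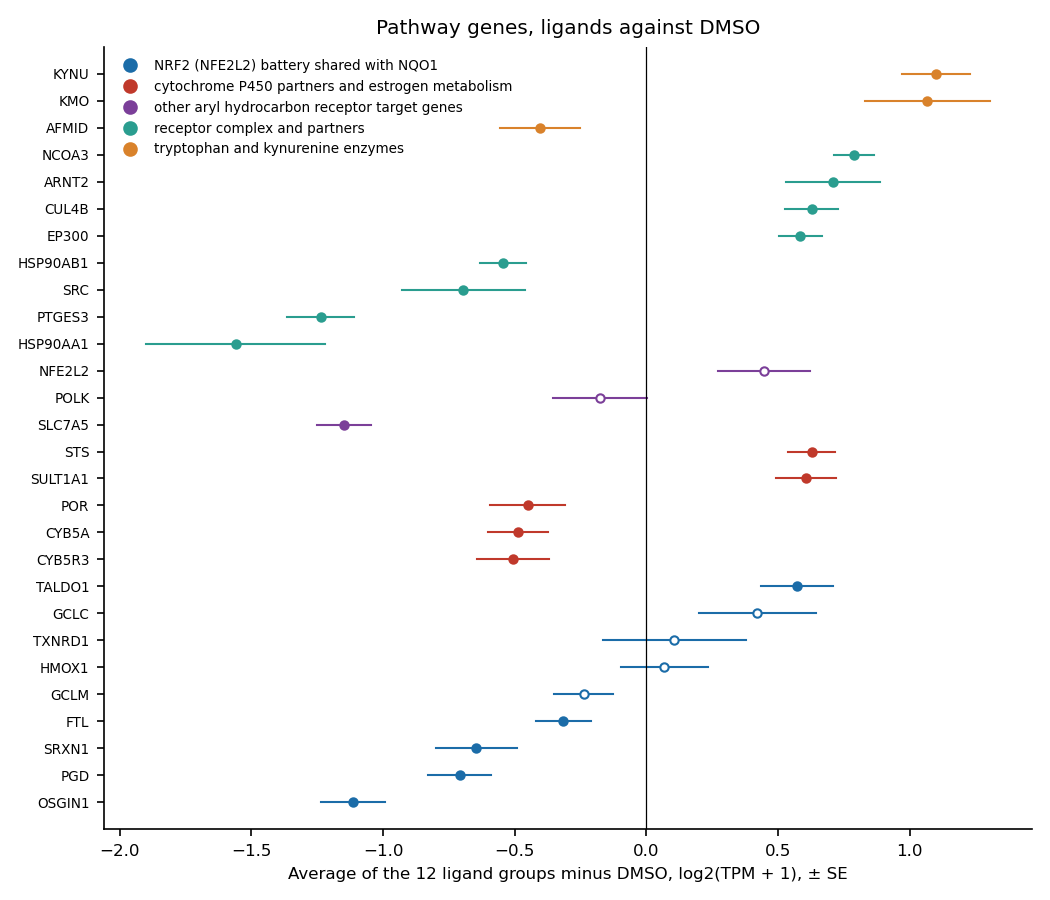
Average log2 difference of the 12 ligand groups minus DMSO (horizontal axis, log2(TPM + 1), bars ± SE) for genes of the 5 pathway lists named in the text, coloured by list; filled points passed adjusted p under 0.05. HSP90AA1 (-1.56) and PTGES3 (-1.24) are the lowest of the receptor complex, and KYNU (1.10) and KMO (1.07) the highest of the kynurenine enzymes.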

How the data were processed

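RNA of 39 libraries was analysed from the authors' table of TPM values per gene symbol, used as deposited. STAR and the GRCh38 build are named, per the submitters' processing notes; counting tool, annotation and program versions were not given in the sources used here. Per the labels' protocols, libraries were stranded and RNA was DNase-treated. Each column sums to 1000000, so depth is unknown, no count model was used, and no counting intervals can be given.

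Groups come from the labels, which list 3 libraries in each, although the series text speaks of fewer replicates. Genes with a mean of at least 1 TPM (14404) were tested on log2(TPM + 1) with limma 3.58.1 in R 4.3.3: 1 mean per group, 26 residual degrees of freedom, intensity trend, Benjamini-Hochberg adjustment within each comparison. Intervals are 95%. The script was tested on simulated data.

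The members and lists were chosen with earlier results of these data known. From the lists, genes called in at least 6 of 12 comparisons with DMSO in 1 direction were named, up to 4 each way by size, plus CYP1A2, NFE2L2 and POR; others were named to complete a count. Some listed genes are counted but not reported here by name. Likeness is Pearson's r of mean log2(TPM + 1) over 13 groups.

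Alternatives were a pseudocount of 0.1, no filter, median-of-ratios scaling, only the 6 libraries compared, and each library left out; the groups left with 2 libraries borrow the spread of the others. For the lists, the 3 SAR439859 30 nM libraries were also left out together. Alternatives for the F tests and list genes, and the dose average, were added after seeing the data.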

Additional observations from a re-analysis of the deposited data

How the results depend on the processing

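No paired analysis was possible because the library numbers were assigned in accession order and the labels tie no library of one group to one of another. Over the members, 662 of 720 alternative values for comparisons with DMSO kept their direction or stayed uncalled as before, 44 lost the call, 14 gained one and 0 reversed; for pairs of ligands these counts were 1711 of 1800, 79, 10 and 0. All 360 dose values and all 180 for the scaffold comparison kept their side of the threshold. CYP1A1 was called higher in 12 of 12 comparisons with DMSO in each alternative.

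With no filter, the CYP1A1 difference of GDC-SAR and GDC-0810 at 30 nM (0.90) had limma adjusted p = 0.0516 and the NQO1 average (0.19) had 0.0937; TIPARP had 0 calls against DMSO, and CYP1B1 and NQO1 had 1 and 3 called pairs. With median-of-ratios scaling the averages were -0.29 for TIPARP (adjusted p = 0.0191, 4 calls) and 0.13 for NQO1 (0.118), and NQO1 had 9 called pairs; that scaling moved the median of all genes by 0.18 for AZD9496 at 30 nM and by 0.05 on average. With only the 6 libraries compared, which leaves fewer samples to estimate the spread, CYP1B1 had 5 and TIPARP 0 calls against DMSO, CYP1A1 had 1, CYP1B1 0 and NQO1 0 called pairs, GDC-SAR minus GDC-0810 at 30 nM (0.90) had adjusted p = 0.262, and AZD-SAR minus AZD9496 at 300 nM (1.34) had 0.0774.

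Leaving out 1 library gave 0.69 to 1.07 for GDC-SAR minus GDC-0810 at 30 nM in CYP1A1, 0.18 to 0.21 for the NQO1 average and between -0.33 and -0.080 for the TIPARP average. Calls against DMSO then numbered 6 to 11 for CYP1B1, 0 to 4 for TIPARP and 1 to 3 for NQO1. Unless a construction above shows it, the cause was not tested. Depth is unknown, which limits what can be said of AHRR and CYP1A2.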

Other observations

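TIPARP was lower at 300 than at 30 nM with each of the 6 ligands, with log2 differences from -0.37 (AZD9496) to -0.08 (AZD-SAR). The average over ligands, a comparison added after this was seen, was -0.19 (SE 0.0516, unadjusted p = 7.44e-04, limma adjusted p = 0.765 over all genes), and it stayed uncalled in each alternative run. The same averages were -0.13 for ARNT, -0.06 for NQO1, 0.07 for CYP1A1, -0.00 for CYP1B1 and 0.05 for AHR, none of them called, and the median over all genes was -0.05.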
